A study of Mus musculus with 4 samples.

Results

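The 8 genes described here encode readers and writers of methylated histone H3 lysine 9 (H3K9) and were chosen by name from the 32285 genes of the count tables. They are Cbx1 and Cbx5, which encode HP1β and HP1α, the co-repressor gene Trim28, and the H3K9 methyltransferase genes Suv39h1, Suv39h2, Ehmt1, Ehmt2 and Setdb1. All 8 symbols were found, once each. In heterochromatin, SUV39H1 and SUV39H2 trimethylate H3K9 and HP1 proteins bind the mark through their chromodomain. EHMT2 (G9a) and EHMT1 (GLP) act as a heterodimer that places mono- and dimethylation in euchromatin, and SETDB1 is brought to retroelements and other silenced loci by TRIM28. In the testis, H3K9 methylation is known to be needed for chromosome synapsis, for the silencing of transposons and for the packaging of the sex chromosomes in meiotic prophase.

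The libraries came from a study of MEIOC, a germ-cell protein that acts on RNA when spermatogonia give way to meiotic cells. Dissociated testis cells of wild-type and Meioc KO C57BL/6N pups at postnatal day 15 were profiled by droplet-based 3′ single-cell RNA sequencing, with 2 libraries per genotype and 1 testis of 1 pup per library. Each of the 2 batches paired a wild-type pup with a Meioc KO littermate. The titles number the replicates without naming a batch, and libraries of the same number were taken here as the littermate pair. Pups of both genotypes were also heterozygous for an Hspa2 mutant allele and homozygous for a ROSA26 tdTomato reporter with its stop cassette intact. The Meioc KO pups carried a constitutive null allele, so that somatic and germ cells were mutant alike. Interstitial cells were discarded during dissociation, though not completely. This limits what the libraries hold of Leydig cells, of which 43 to 83 Leydig-like cells per library remained. With 2 pups per genotype, each p-value of a genotype difference within a stage rests on 2 libraries per genotype. The test draws each gene's spread between libraries towards that of the other genes tested.

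Between 6334 and 8494 barcodes per library had more than 1000 detected genes and under 10% mitochondrial UMIs, and 6013 to 7917 were left after doublet removal. Pairs of libraries shared 12 to 16 barcodes. Wild-type germ cells formed 11 clusters along spermatogenesis, called stages 1 to 11 here, and Meioc KO cells were placed with the wild-type cells nearest to them. Stage 1 was undifferentiated spermatogonia-like, stages 2 to 6 were differentiating spermatogonia-like, stage 7 was preleptotene-like, stages 8 to 10 were early spermatocyte-like and stage 11 was pachytene-like. The members, the other H3K9 pathway genes and the cell cycle lists were kept out of the genes that formed these clusters. Stages 10 and 11 held no Meioc KO cells, so genotypes were compared in stages 1 to 9, in Sertoli-like cells and in peritubular myoid-like cells. Meioc itself was read at its 3′ end and was present in the Meioc KO libraries, at 674 and 652 UMIs per 1000000 UMIs (CPM) in stage 7, against 636 and 683 CPM in wild type. It was lower in Meioc KO in stage 3 (57.5 and 57.6 CPM against 83.4 and 85.7 CPM) and higher in stage 9 (710 and 709 CPM against 477 and 485 CPM), so its counts do not check the genotype.

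The genes lie on 7 chromosomes (GRCm38). Cbx1 (ENSMUSG00000018666) is at chr11:96789127-96808640 on the plus strand, Cbx5 (ENSMUSG00000009575) at chr15:103191544-103239816 on the minus strand and Trim28 (ENSMUSG00000005566) at chr7:12999114-13031035 on the plus strand. Suv39h1 (ENSMUSG00000039231) is X-linked, at chrX:8061171-8074760 on the minus strand. Suv39h2 (ENSMUSG00000026646) and Ehmt1 (ENSMUSG00000036893) both lie on the minus strand of chromosome 2, at chr2:3455815-3475031 and chr2:24789928-24919614. Ehmt2 (ENSMUSG00000013787) is at chr17:34898469-34914052 on the plus strand and Setdb1 (ENSMUSG00000015697) at chr3:95323525-95357202 on the minus strand. Trim28, Suv39h2 and Setdb1 overlap the protein-coding genes Zbtb45, Dclre1c and Cers2 on the other strand, and Ehmt1 overlaps provisional gene models on its own strand.

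The promoters of the members were searched because E2F factors and the STRA8-MEIOSIN complex act on many genes of this transition. The study describes E2F6 as a repressor of meiotic genes and STRA8-MEIOSIN as an activator. RefSeq promoter windows (GRCm38.p6) reach from 250 bases before to 50 bases after a start, and the 8 members had 11 of them. TCCCGC, the core of an E2F site, was found on either strand in 6 of 11 windows, from 6 of the 8 members, against 20.0% of all 32851 windows. The E box CACGTG was found in 3 windows, of Cbx5 and Ehmt2, against 7.15% of all windows. CNCCTCAG, the letters known for STRA8-MEIOSIN, was found in the windows of Trim28 and Suv39h1 against 7.94% of all windows. The longer E2F forms TTTGGCGC and TTTCGCGC were in no member's window, and in 0.514% and 0.323% of all windows. The 11 windows were 52.7% to 82.7% G and C, and none of the motifs was matched for that. The Setdb1 window held none of the 5 motifs. A match is a run of letters and no measured binding site. The 250 bases upstream of the start are shown for the members with a CNCCTCAG match, and for Cbx5 and Suv39h2 as examples with TCCCGC. Capitals mark the matches of the 5 motifs, on whichever strand they lie, and each sequence reads 5′ to 3′ on the strand of the gene.
Trim28, chr7:13023902-13024151, plus strand: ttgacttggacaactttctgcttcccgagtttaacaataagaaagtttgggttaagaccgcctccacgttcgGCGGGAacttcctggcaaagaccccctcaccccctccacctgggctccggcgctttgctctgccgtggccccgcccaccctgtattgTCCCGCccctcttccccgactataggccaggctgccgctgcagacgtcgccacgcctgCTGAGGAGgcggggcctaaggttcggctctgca
Suv39h1, the second of its 2 starts, chrX:8074362-8074611, minus strand: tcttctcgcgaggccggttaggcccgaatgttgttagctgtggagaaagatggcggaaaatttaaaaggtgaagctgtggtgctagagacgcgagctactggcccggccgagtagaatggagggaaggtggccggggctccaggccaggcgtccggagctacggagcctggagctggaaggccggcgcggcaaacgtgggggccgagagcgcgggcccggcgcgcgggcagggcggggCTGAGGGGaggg
Cbx5, the first of its 2 starts, chr15:103239853-103240102, minus strand: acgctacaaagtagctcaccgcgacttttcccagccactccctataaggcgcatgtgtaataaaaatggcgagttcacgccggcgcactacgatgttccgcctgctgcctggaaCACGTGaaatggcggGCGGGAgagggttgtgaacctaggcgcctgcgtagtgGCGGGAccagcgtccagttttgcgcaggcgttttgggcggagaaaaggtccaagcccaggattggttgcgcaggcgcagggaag
Suv39h2, chr2:3474987-3475236, minus strand: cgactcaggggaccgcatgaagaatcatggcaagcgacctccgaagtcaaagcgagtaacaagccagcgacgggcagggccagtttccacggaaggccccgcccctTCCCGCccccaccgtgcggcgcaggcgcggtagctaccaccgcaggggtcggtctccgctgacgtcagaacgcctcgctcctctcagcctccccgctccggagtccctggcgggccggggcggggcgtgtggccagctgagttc

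The first question was where along wild-type spermatogenesis each gene is high. Setdb1 and Suv39h1 peaked in the first early spermatocyte-like stage, Cbx1 was lowest in the first spermatogonia and highest in that same stage, and Trim28 was highest in the latest stages. Ehmt2, Ehmt1 and Suv39h2 had their highest levels in the first 3 stages and were low at the end. Cbx5 varied least, with a 2.08-fold span between its highest and lowest germ-cell stage, while Suv39h1 varied most, with a 75.2-fold span. The low end of the Suv39h1 span was 2.71 CPM in stage 11, where it missed the detection limit, so the size of that span is uncertain. Neighbouring stages were compared with edgeR on UMIs summed per library and stage, and a gene was called at a Benjamini-Hochberg adjusted p under 0.05 and an absolute log2 fold change of at least 0.1. Most genes changed between most neighbours, so a called member is not unusual. From stage 1 to 2, 2 to 3, 3 to 4, 4 to 5 and 5 to 6, edgeR called 6, 4, 6, 4 and 5 of 8 members, against 68.3%, 55.9%, 38.0%, 48.3% and 53.9% of all genes tested. From stage 6 to 7, 7 to 8 and 9 to 10 it called 6, 7 and 8 of 8 members, against 74.9%, 76.3% and 71.8% of genes. From stage 8 to 9 it called 7 of 7, against 80.1%, and from stage 10 to 11 5 of 7, against 78.4%.

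**Figure D1:**
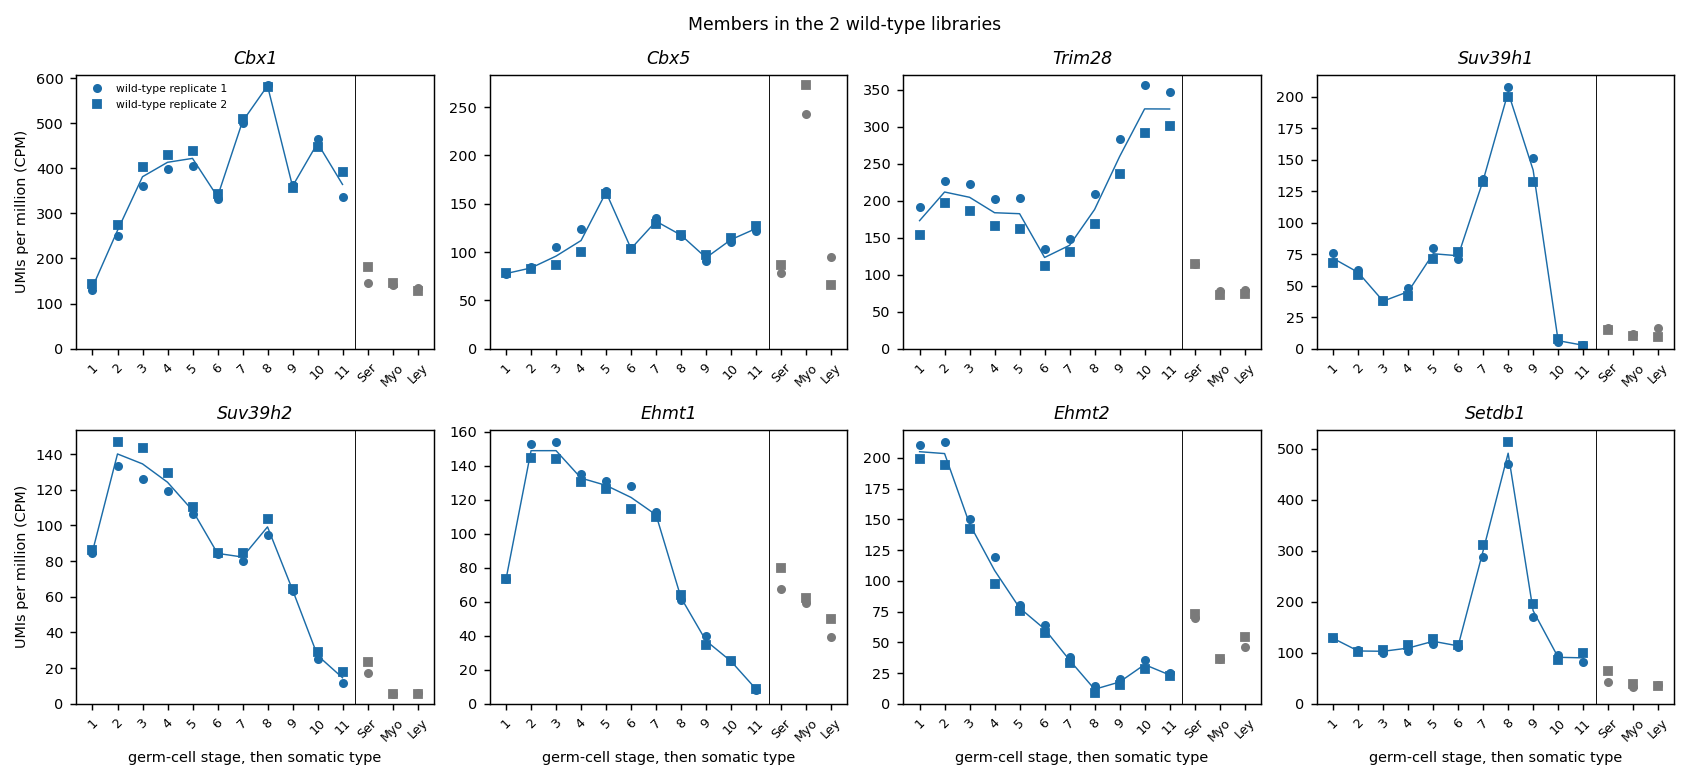
UMIs per 1000000 (CPM) of each member in the wild-type libraries, by germ-cell stage (blue, stages 1 to 11, line through the mean) and in Sertoli-like (Ser), peritubular myoid-like (Myo) and Leydig-like (Ley) cells (grey). Circles are replicate 1 and squares replicate 2. Setdb1 and Suv39h1 rise to a peak in stage 8, and Suv39h1 is at 2.22 to 7.75 CPM in stages 10 and 11.

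Cbx1 encodes HP1β, a reader of H3K9 methylation. It stood at 129 and 144 CPM in stage 1 of the 2 wild-type libraries, at 250 and 274 CPM in stage 2, and at 405 and 439 CPM in stage 5. It fell to 331 and 342 CPM in stage 6 (-0.31 ± 0.05) and then reached 499 and 508 CPM in stage 7 and its highest level, 585 and 581 CPM, in stage 8. The libraries of stage 8 lay above those of every other stage and somatic type. The level rose from stage 1 to 2 (log2 fold change 0.85 ± 0.06 SE) in a contrast in which 68.3% of genes were called, and fell from stage 8 to 9 (-0.92 ± 0.06), where 80.1% were called. It rose again to 465 and 447 CPM in stage 10. Stages 5, 4, 3, 11 and 9 followed each other in the order of levels, each overlapping the next.

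Cbx5, which encodes HP1α, was highest among germ cells in stage 5, at 163 and 160 CPM. It was at 77.4 and 78.1 CPM in stage 1 and at 91.0 and 97.2 CPM in stage 9. The rise from stage 4 to 5 (0.51 ± 0.07) and the fall from 5 to 6 (-0.63 ± 0.08) were both called, in contrasts with 48.3% and 53.9% of genes called. No change was called from stage 7 to 8 (-0.0039 ± 0.08). Peritubular myoid-like cells held more Cbx5 than any germ-cell stage, at 243 and 273 CPM. A cluster outside the germ cells that was given no name also did, at 217 and 237 CPM.

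Trim28 encodes the co-repressor that links KRAB zinc finger proteins to SETDB1 and HP1. It was lowest in stage 6, at 135 and 112 CPM, and then climbed through 149 and 131 CPM in stage 7, 209 and 168 CPM in stage 8 and 284 and 236 CPM in stage 9 to 357 and 292 CPM in stage 10. Wild-type replicate 1 was above replicate 2 in every germ-cell stage. Because of that gap the ranges overlapped for 10 of the 14 neighbours in the order of levels, yet each step from stage 6 to 10 was called in the fit with library as a term. The largest of these steps was from stage 7 to 8 (0.58 ± 0.06, with 76.3% of genes called).

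Suv39h1 and Suv39h2 encode the methyltransferases of constitutive heterochromatin and peaked in different stages. Suv39h1 fell from 75.5 and 67.8 CPM in stage 1 to 37.6 and 37.8 CPM in stage 3, then rose to 134 and 132 CPM in stage 7 and 207 and 200 CPM in stage 8. It was still at 151 and 132 CPM in stage 9 but at 4.94 and 7.75 CPM in stage 10, from 18 and 61 UMIs. This step was the largest of any member (-4.17 ± 0.13, with 71.8% of genes called). The 207 X-linked genes tested from stage 9 to 10 had a median log2 fold change of -2.0, with 199 of them called lower, while the 6063 other genes had a median of 0.11. In stage 11 Suv39h1 was at 3.19 and 2.22 CPM and missed the detection limit. At that level, free RNA from other cells cannot be told apart from expression.

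Suv39h2 was highest in stages 2 and 3, at 134 and 147 CPM and at 126 and 143 CPM, which overlapped. It stood at 80.1 and 84.5 CPM in stage 7 and at 94.7 and 104 CPM in stage 8, a rise of 0.43 ± 0.08. The next 3 steps were all called falls (-0.87 ± 0.09, -1.04 ± 0.11 and -0.82 ± 0.12), and the level in stage 11 was 11.6 and 17.7 CPM. Suv39h2 thus had its high levels before, and Suv39h1 after, the entry into stage 7.

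Ehmt1 and Ehmt2 encode the partners of the GLP-G9a heterodimer, and both declined. Ehmt1 rose from 73.2 and 73.6 CPM in stage 1 to 153 and 145 CPM in stage 2 (0.93 ± 0.06) and held 113 and 110 CPM in stage 7. It was then called lower in each of the 4 later steps, down to 8.33 and 8.96 CPM in stage 11. Ehmt2 began its decline earlier. It stood at 211 and 199 CPM in stage 1, at 63.8 and 57.9 CPM in stage 6, at 38.0 and 33.0 CPM in stage 7 and at 14.6 and 9.10 CPM in stage 8, from 44 and 51 UMIs. A called rise followed from stage 9 to 10 (1.04 ± 0.13), to 35.4 and 28.4 CPM.

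Setdb1, which encodes the methyltransferase that works with TRIM28, stayed between 99.8 and 129 CPM in both wild-type libraries through stages 1 to 6. It then reached 288 and 312 CPM in stage 7 and 469 and 513 CPM in stage 8. The steps from stage 6 to 7 (1.46 ± 0.07, with 74.9% of genes called) and from 7 to 8 (0.87 ± 0.06) were followed by falls from 8 to 9 (-1.64 ± 0.07) and from 9 to 10 (-0.87 ± 0.08). In stage 10 it was back at 96.0 and 86.5 CPM. Stages 8, 7 and 9, in that order, lay apart from each other and above all the rest.

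The 30 wild-type sums came from 15 clusters in each library, 11 germ-cell stages and 4 others. Over them, Cbx1 and Setdb1 had the most alike levels of any pair of members (Pearson r of log2(CPM + 1) of 0.78). Suv39h1 with Suv39h2 and Suv39h1 with Setdb1 followed (0.76 for each), and Cbx5 and Suv39h2 had the least alike (-0.42). Germ and somatic clusters enter together, so r does not measure the course over germ-cell stages alone. These sums share libraries and are a description only. Among 9268 genes with a mean of at least 10 CPM, the genes most like Cbx1 were Taf12, Ythdc2 and Qrich1 (r of 0.96, 0.95 and 0.95). Ythdc2 encodes the RNA helicase that binds MEIOC. The genes most like Setdb1 were Swt1, Brca2 and Rapgef6 (0.97 for each), of which Brca2 serves homologous recombination. Trim28 was most like Nup205, Ddx39 and Cit (0.95, 0.95 and 0.94), and Cbx5 had no close match, with Ier5, Picalm and Mdk at 0.79, 0.77 and 0.76. For Suv39h1 these were Agpat5, Cstf2 and Rbmx2 (0.96, 0.96 and 0.95), and for Suv39h2 Shq1, Polr3a and Edrf1 (0.97 for each). For Ehmt1 they were Rcbtb1, Ptma and Abi1 (0.97, 0.95 and 0.94), and for Ehmt2 Ube2v1, Pgm1 and Polr2e (0.98, 0.95 and 0.95).

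In somatic cells most members were low. Sertoli-like cells of the wild-type libraries held 146 and 182 CPM of Cbx1, 114 CPM of Trim28 in both libraries, 67.6 and 79.9 CPM of Ehmt1, 69.7 and 73.3 CPM of Ehmt2 and 43.6 and 64.9 CPM of Setdb1. Every one of these was below the highest germ-cell stage of the same gene. They were not below every stage, since both Sertoli libraries lay above stages 6 to 11 for Ehmt2, above stages 8 to 11 for Ehmt1 and above stage 1 for Cbx1. Suv39h1 was at 16.0 and 14.9 CPM in Sertoli-like and at 12 and 10.3 CPM in peritubular myoid-like cells, and Suv39h2 at 17.1 and 23.6 CPM and at 5.61 and 5.76 CPM. The 5 germ-cell markers summed to 240 and 278 CPM in Sertoli-like and to 110 and 72.2 CPM in peritubular myoid-like cells, against 1769 to 3861 CPM in wild-type germ-cell stages. For both genes, expression in these somatic cells and RNA carried over from germ cells cannot be told apart at such levels. Leydig-like cells, of 51 and 76 wild-type cells, held 134 and 128 CPM of Cbx1 and 36.5 and 35.3 CPM of Setdb1. In germ-cell stages the Sertoli markers summed to 19.6 to 119 CPM, against 6636 to 7426 CPM in Sertoli-like cells.

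By genotype, no member was called in spermatogonia. All 8 members were tested in each of stages 1 to 6, and edgeR called none of them. Over all genes 0.0117%, 0.0117%, 0.0255%, 0%, 0% and 1.51% were called in stages 1 to 6. In stages 4 and 5, where no gene was called, the unadjusted p was under 0.05 for 133 and 357 genes, and 2 and 6 were called by DESeq2. With the littermate pair as a block, 23, 35, 90, 46, 452 and 515 genes were called in stages 1 to 6, against 1, 1, 2, 0, 0 and 91 without it, and still no member. Of the 48 tests of members, 1 had an unadjusted p under 0.05, that of Cbx5 in stage 6 (log2 fold change, wild type over Meioc KO, -0.23 ± 0.11, unadjusted p = 0.0465), and DESeq2 called none. The median absolute log2 fold change of the members lay between 0.028 and 0.073 in these stages, against 0.069 to 0.11 over all genes tested. In Sertoli-like cells 6 members were tested and none was called, against 0.24% of 5004 genes, and in peritubular myoid-like cells none of 6, against 0.0572% of 5246 genes. Sertoli-like cells had a median of only 2221 to 4480 UMIs per library, against 8366 to 11294 in peritubular myoid-like cells. The missing calls do not show equal levels. In neither type was the unadjusted p of a member under 0.05, and none was called by DESeq2.

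**Figure D2:**
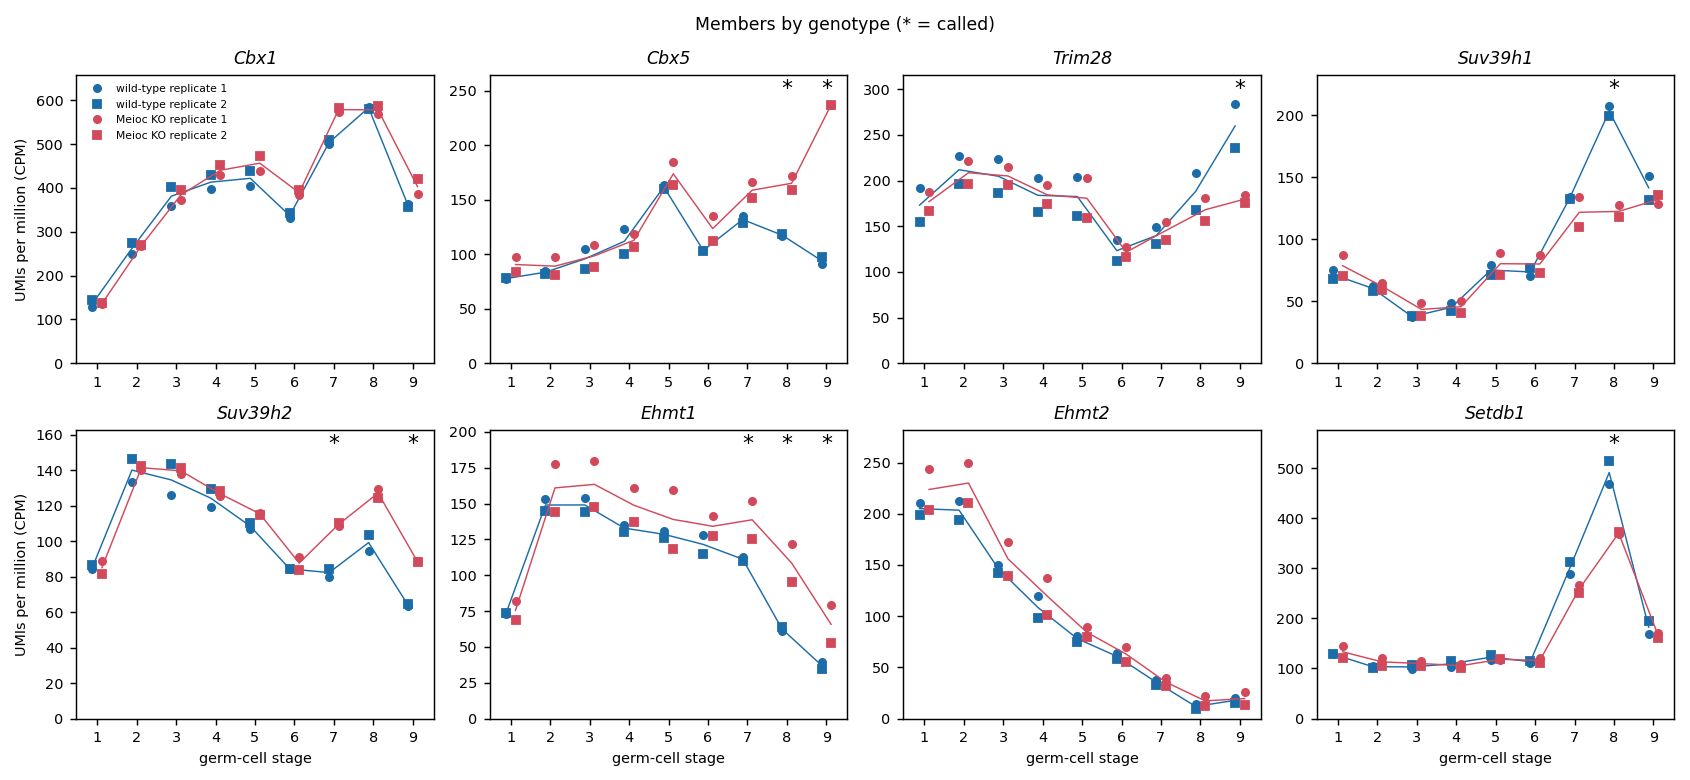
CPM of each member in stages 1 to 9 of the wild-type (blue) and Meioc KO (red) libraries, with circles for replicate 1, squares for replicate 2 and lines through the means. Asterisks mark called differences, all of which lie in stages 7 to 9. Cbx5 in stage 9 was at 237 CPM in both Meioc KO libraries and at 91.0 and 97.2 CPM in wild type.

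The 10 calls of members all lay in stages 7 to 9 and went both ways. Ehmt1 (stages 7, 8 and 9), Suv39h2 (stages 7 and 9) and Cbx5 (stages 8 and 9) were called higher in Meioc KO cells. Setdb1 and Suv39h1 (both in stage 8) and Trim28 (stage 9) were called higher in wild-type cells, and Cbx1 and Ehmt2 were called in no stage. In stage 7 edgeR called 2 of 8 members, where 26.4% of genes were called, in stage 8 4 of 7, where 45.5% were called, and in stage 9 4 of 7, where 58.1% were called. The median absolute log2 fold change of the members was 0.20, 0.41 and 0.46 in these stages, against 0.19, 0.32 and 0.38 over all genes tested. DESeq2 called 0, 4 and 4 members, where it called 1261 of 6036, 2094 of 5821 and 2998 of 6278 genes. With the littermate pair as a block, 4, 6 and 4 members were called, against 44.1%, 60.2% and 65.4% of all genes tested. The block added Cbx5 (adjusted p = 0.038) and Setdb1 (adjusted p = 0.00466) in stage 7 and Suv39h2 (adjusted p = 0.0199) and Trim28 (adjusted p = 0.0215) in stage 8.

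The HP1α gene Cbx5 gave the largest difference of any member. In stage 9 it was at 91.0 and 97.2 CPM in the wild-type libraries and at 237 CPM in both Meioc KO libraries (-1.32 ± 0.11, adjusted p = 1.22e-11, 2.50-fold higher in Meioc KO). In stage 8 the values were 117 and 118 CPM in wild type, against 172 and 159 CPM in Meioc KO (-0.41 ± 0.10, adjusted p = 0.00539). The genotypes did not overlap in either stage. Cbx5 fell from stage 8 to 9 in wild type (-0.53), while the Meioc KO mean lay above that of every wild-type germ-cell stage in stages 8 and 9 (165 and 237 CPM, against 162 CPM in wild-type stage 5). In stage 8 this held for the means only, since Meioc KO replicate 2, at 159 CPM, was below both wild-type libraries of stage 5.

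Cbx1, which encodes the other HP1 protein among the members, was called in no stage. It was at 363 and 357 CPM in wild-type libraries, against 386 and 419 CPM in Meioc KO libraries in stage 9 (-0.16 ± 0.13, adjusted p = 0.309), and at 585 and 581 CPM and 569 and 587 CPM in stage 8 (0.09 ± 0.12, adjusted p = 0.573). In stage 7 the Meioc KO libraries, at 574 and 583 CPM, lay above the wild-type ones at 499 and 508 CPM without a call (-0.15 ± 0.13, adjusted p = 0.428). In stages 4 to 6 it was also above wild type in the Meioc KO littermate of both batches, with 331 and 342 CPM against 384 and 394 CPM in stage 6 (-0.19 ± 0.14, adjusted p = 0.716). The libraries of the genotypes did not overlap in stages 4, 5, 6, 7 and 9, though in stage 4 they nearly met, at 428.7 and 429.0 CPM. The share of all genes whose libraries lay apart in this way was not counted, so the lack of overlap gives no evidence for a difference. Nor do the missing calls show that Cbx1 was equal in both genotypes.

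Trim28 was at 284 and 236 CPM in wild-type libraries, against 184 and 175 CPM in Meioc KO libraries in stage 9 (0.53 ± 0.11, adjusted p = 2.11e-04). Where wild-type Trim28 climbed from stage 8 to 9, its Meioc KO mean of 180 CPM stayed just under the wild-type mean of stage 8, 188 CPM. In stage 8 the genotypes overlapped, with 209 and 168 CPM in wild type, against 181 and 155 CPM in Meioc KO, and no call was made (0.23 ± 0.11, adjusted p = 0.108) except with the block or without wild-type replicate 2 (0.37, adjusted p = 0.0259).

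Suv39h1 was called in stage 8 and in no other stage. In stage 8 it was at 207 and 200 CPM in wild type, against 127 and 118 CPM in Meioc KO (0.81 ± 0.10, adjusted p = 4.00e-05, 1.75-fold higher in wild type). The Meioc KO values lay within the range of those in Meioc KO stage 7, 134 and 110 CPM. The 212 X-linked genes tested there had a median log2 fold change of -0.18, opposite in sign, with 30 called higher and 79 called lower in wild type. In stage 9 the values were 151 and 132 CPM against 129 and 135 CPM (0.09 ± 0.11, adjusted p = 0.458), which overlapped. In stage 7 they were 134 and 132 CPM against 134 and 110 CPM (0.18 ± 0.10, adjusted p = 0.182).

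Suv39h2 went the other way from Suv39h1. In stage 9 it was at 63.2 and 64.6 CPM in wild type, against 88.9 and 88.0 CPM in Meioc KO (-0.46 ± 0.12, adjusted p = 0.00145). In stage 7 it was at 80.1 and 84.5 CPM against 109 and 110 CPM (-0.36 ± 0.11, adjusted p = 0.0145), a call that was lost without wild-type replicate 1 (-0.28, adjusted p = 0.127), without Meioc KO replicate 2 (-0.30, adjusted p = 0.0947), by DESeq2 (adjusted p = 0.0529) and with cells placed without the called genes (adjusted p = 0.0575). In stage 8, with 94.7 and 104 CPM against 130 and 125 CPM, the difference was not called (-0.27 ± 0.11, adjusted p = 0.0571) except with the block or without wild-type replicate 2 (-0.37, adjusted p = 0.0423).

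Ehmt1 was the one member called in all 3 stages, each time higher in Meioc KO. It was at 60.9 and 63.9 CPM in wild type, against 122 and 95.0 CPM in Meioc KO in stage 8 (-0.71 ± 0.13, adjusted p = 7.56e-04), and at 39.7 and 34.5 CPM against 79.0 and 52.5 CPM in stage 9 (-0.82 ± 0.15, adjusted p = 5.86e-05). Meioc KO replicate 1 was above replicate 2, and above both wild-type libraries, in every one of stages 1 to 9. In stages 8 and 9 both Meioc KO replicates were above wild type. In stage 7 the values were 113 and 110 CPM against 152 and 126 CPM (-0.27 ± 0.10, adjusted p = 0.0499), at the edge of the threshold. That call was lost without either wild-type replicate (adjusted p = 0.166 and 0.102), without Meioc KO replicate 1 (-0.18, adjusted p = 0.384) and by DESeq2 (adjusted p = 0.163). Ehmt2, its partner, had a UMI in too few cells of stages 8 and 9 to be tested, at 14.6 and 9.10 CPM in wild type, against 22.1 and 12.4 CPM in Meioc KO in stage 8. In stage 7 its genotypes overlapped (0.04 ± 0.13, adjusted p = 0.849).

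Setdb1 was called in stage 8, at 469 and 513 CPM in wild type, against 369 and 372 CPM in Meioc KO (0.49 ± 0.11, adjusted p = 0.00339). In stage 7 it was at 288 and 312 CPM against 267 and 250.8 CPM, apart but not called without the block (0.27 ± 0.11, adjusted p = 0.0651), though called without wild-type replicate 1 (0.37, adjusted p = 0.0495) and with cells placed without the called genes (0.39, adjusted p = 0.0142). In stage 9 the genotypes overlapped (0.15 ± 0.11, adjusted p = 0.25).

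**Figure D3:**
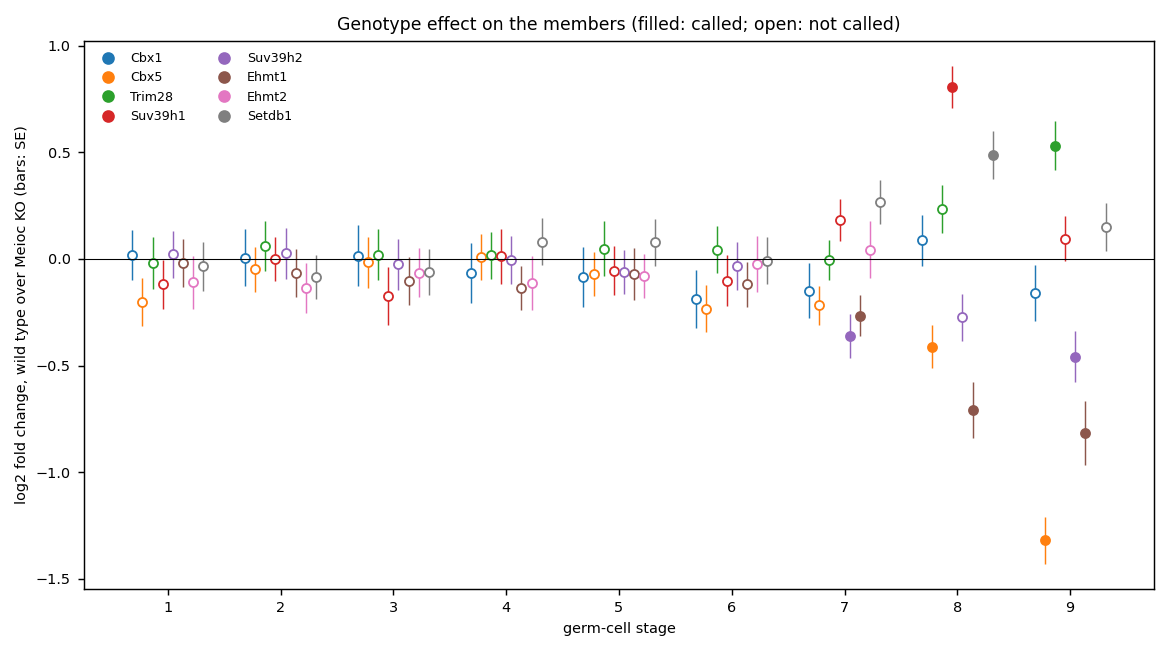
Log2 fold change, wild type over Meioc KO, of each member in stages 1 to 9 (points, coloured by gene, with bars for 1 SE). Filled points were called by edgeR and open points were not. The members lie near 0 through stage 6 and spread in both directions from stage 7, with Cbx5 at -1.32 in stage 9 and Suv39h1 at 0.81 in stage 8.

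Set against the wild-type course, the Meioc KO mean lay between the wild-type means of the same and the preceding stage in 10 of the 24 combinations of a member with stages 7 to 9, and in 3 of the 10 that were called. Those 3 were Setdb1 and Ehmt1 in stage 8 and Suv39h2 in stage 9. The Meioc KO mean lay outside the range of all wild-type stage means in 2 combinations, both of Cbx5, and in stage 8 its libraries overlapped those of wild-type stage 5. The 24 combinations include Ehmt2 in stages 8 and 9, where it was not tested by genotype. The same counts were not made over all genes, so they cannot show whether the members differ from other genes. Other lists also differed within these stages. The G2/M list summed to 2424 and 2507 CPM in wild-type libraries, against 3976 and 3531 CPM in Meioc KO libraries in stage 7, and to 4777 and 5004 CPM against 6339 and 5861 CPM in stage 8. In stage 9 it was at 2988 and 3008 CPM against 3905 and 3678 CPM, and the 10 S phase genes were at 936 and 816 CPM against 1452 and 1239 CPM. The S phase genes went the other way in stage 8 (1801 and 1617 CPM against 1575 and 1503 CPM) and overlapped in stage 7. The 6 preleptotene markers were at 1807 and 1830 CPM against 2884 and 3157 CPM in stage 8, and at 1014 and 1230 CPM against 2013 and 2112 CPM in stage 9. The 8 early spermatocyte markers were also higher in Meioc KO, at 5096 and 4912 CPM in wild-type libraries and 5944 and 5660 CPM in the others in stage 8, and at 4923 and 4532 CPM against 6183 and 5763 CPM in stage 9. The 7 differentiating spermatogonia markers were at 422 and 371 CPM in wild-type libraries, against 568 and 547 CPM in Meioc KO libraries in stage 8. In stage 9 they were at 287 and 245 CPM against 778 and 737 CPM. The 8 pachytene markers were at 297 and 278 CPM in wild type, against 215 and 222 CPM in Meioc KO in stage 8. In stage 9 they were at 702 and 588 CPM against 302 and 313 CPM. The part of these lists in the members' differences was not tested. Meioc KO cells without a wild-type counterpart were placed in the nearest wild-type stage. From these libraries the study reported a cluster of Meioc KO spermatocytes, mostly in G2/M phase, and some Meioc KO cells assigned to pachytene. Which stages hold such cells here was not examined.

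The difference between the genotype effect in early spermatocyte-like stages 8 and 9 and that in spermatogonia-like stages 1 to 6 was tested directly. This fit holds the library as a term and takes its error from the stage sums within the libraries, so that 9 sums of each of the same 4 pups enter as separate values and the p-values do not rest on pups alone as replicates. The difference was called for 6 of 8 members, where 59.3% of 9684 genes were called. Cbx5 (-0.70 ± 0.06, adjusted p = 1.45e-12), Ehmt1 (-0.61 ± 0.07, adjusted p = 9.12e-10) and Suv39h2 (-0.30 ± 0.06, adjusted p = 1.42e-05) shifted towards Meioc KO. Suv39h1 (0.58 ± 0.06, adjusted p = 4.40e-10), Trim28 (0.41 ± 0.05, adjusted p = 1.32e-09) and Setdb1 (0.38 ± 0.05, adjusted p = 3.23e-08) shifted towards wild type. Cbx1 did not pass (0.07 ± 0.04, adjusted p = 0.123) but did without wild-type replicate 2 (0.14, adjusted p = 0.0321). For Ehmt2, which was below the detection limit in both spermatocyte stages, the value rests on few UMIs on that side. It did not pass (-0.17 ± 0.14, adjusted p = 0.289), passed without Meioc KO replicate 2 (-0.46, adjusted p = 0.0047) and changed sign without wild-type replicate 2 (0.07) or Meioc KO replicate 1 (0.16).

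The other 29 genes of the H3K9 pathway had calls in both directions. They were listed under the names of HP1 family and heterochromatin partners, SETDB1 and HUSH partners, G9a and GLP partners, and H3K9 demethylases. These names are loose, since Cbx3 is itself an HP1 gene and Setdb2 and Prdm2 are themselves described as H3K9 methyltransferase genes. In stage 7, 8 of the 25 tested were called (32%, against 26.4% of all genes), 2 towards wild type (10.6% of all genes) and 6 towards Meioc KO (15.8%). In stage 8, 6 of 24 were called (25%, against 45.5% of all genes), 3 in each direction (over all genes, 21.3% towards wild type, 24.1% towards Meioc KO). In stage 9, 8 of 25 were called (32%, against 58.1%), 2 towards wild type (28.4%) and 6 towards Meioc KO (29.7%). None was called in stages 1 to 6 or in either somatic type. Whether these shares differ from those of all genes was not tested. Over stages 1 to 9 the calls numbered 22, and 34 with the littermate pair as a block, which also raised the calls over all genes in stages 7 to 9.

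**Figure D4:**
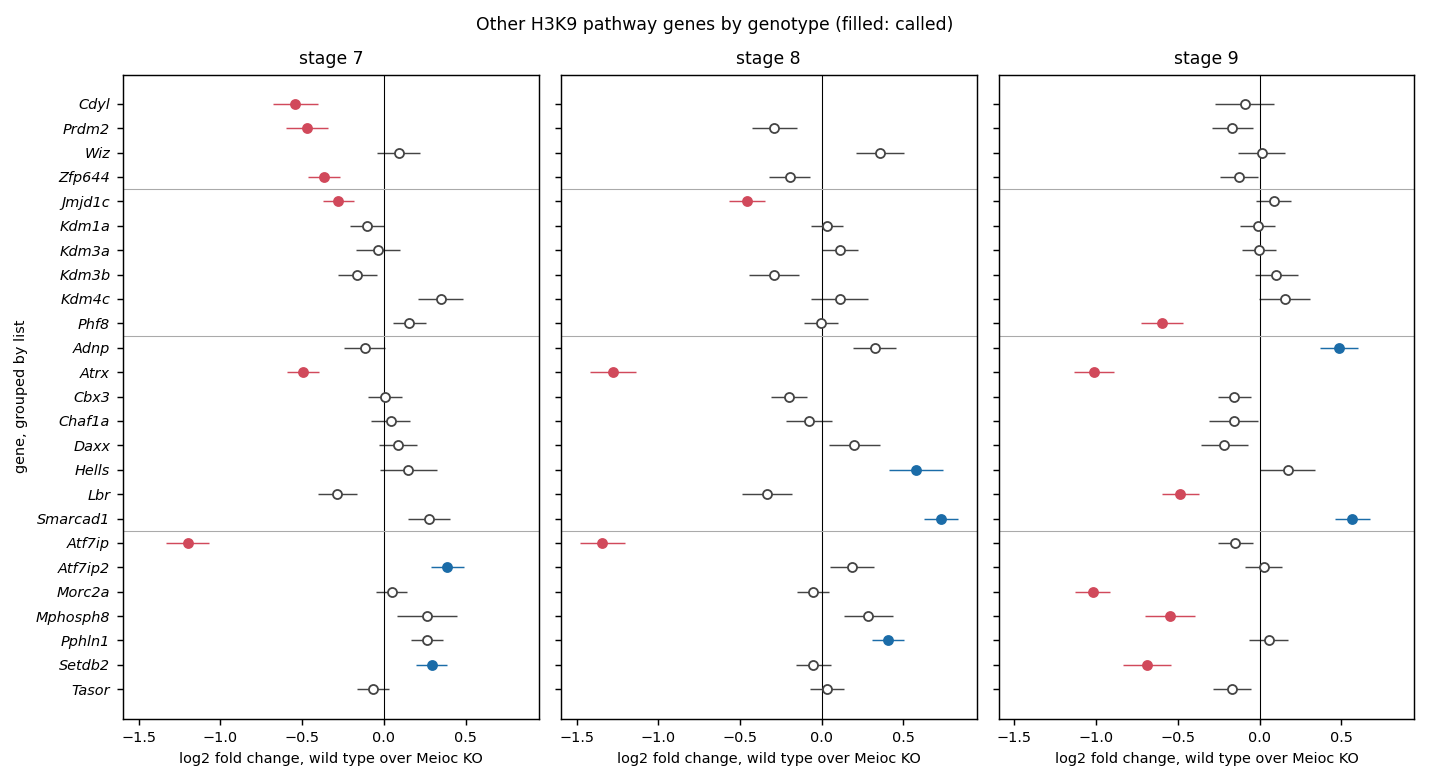
Log2 fold change, wild type over Meioc KO, with bars for 1 SE, of the other H3K9 pathway genes tested in stages 7, 8 and 9. Grey lines part the G9a/GLP partners, the demethylases, the HP1 family and heterochromatin partners and the SETDB1 and HUSH partners, from top to bottom, and filled points were called, higher in wild type in blue and in Meioc KO in red. Atrx and Atf7ip lie furthest to the Meioc KO side, at -1.28 and -1.34 in stage 8.

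Among the HP1 partners, Atrx, which encodes a chromatin remodeller that binds H3K9me3 with HP1α, was higher in Meioc KO in all 3 stages. It is X-linked. The X-linked genes tested had a median of 0.075 in stage 7, where 26 of 207 were called higher and 14 lower in wild type. Their median was -0.18 in stage 8 and -0.36 in stage 9, where 137 of 267 were called lower in wild type. Atrx was at -0.49 ± 0.10 in stage 7. In stage 8 Atrx was at 30.5 and 32.8 CPM in wild type, against 86.8 and 76.4 CPM in Meioc KO (-1.28 ± 0.14, adjusted p = 1.66e-05). Smarcad1, a remodeller that helps restore H3K9 methylation after replication, was higher in wild type in stage 8 (193 and 207 CPM against 128 and 127 CPM, 0.73 ± 0.10) and in stage 9 (0.57 ± 0.11). Hells was higher in wild type in stage 8 (0.58 ± 0.17), a call lost without wild-type replicate 2 (0.41, adjusted p = 0.185). Adnp was higher in wild type in stage 9 (0.48 ± 0.12), a call lost without Meioc KO replicate 2 (0.28, adjusted p = 0.0536). Cbx3, which encodes HP1γ, was called in no stage, with 225 and 226 CPM in wild type, against 222 and 243 CPM in Meioc KO in stage 7 (0.0053 ± 0.10, adjusted p = 0.978). Its values in stage 8 (-0.20 ± 0.11, adjusted p = 0.151) and stage 9 (-0.15 ± 0.10, adjusted p = 0.206) were towards Meioc KO.

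Atf7ip encodes a partner that stabilises SETDB1 in the nucleus, and it moved opposite to Setdb1. It was at 25.1 and 21.0 CPM in wild type, against 55.4 and 54.1 CPM in Meioc KO in stage 7 (-1.20 ± 0.13, adjusted p = 1.33e-06), and at 38.1 and 48.0 CPM against 119 and 115 CPM in stage 8 (-1.34 ± 0.14, adjusted p = 9.85e-06). Its paralogue Atf7ip2 was higher in wild type in stage 7 (0.39 ± 0.10), a call lost without wild-type replicate 2 (adjusted p = 0.0955) or Meioc KO replicate 1 (adjusted p = 0.051). Morc2a, which works with the HUSH complex, was at 66.7 and 68.4 CPM in wild type, against 143 and 134 CPM in Meioc KO in stage 9 (-1.02 ± 0.11, adjusted p = 1.35e-09). The HUSH subunit gene Pphln1 was higher in wild type in stage 8 (0.40 ± 0.10). Setdb2 was higher in wild type in stage 7 (0.29 ± 0.09) and in Meioc KO in stage 9 (-0.69 ± 0.15). The stage 7 call was lost without wild-type replicate 2 (adjusted p = 0.153) or Meioc KO replicate 1 (adjusted p = 0.161).

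Of the demethylase list, Jmjd1c was higher in Meioc KO in stage 8 (134 and 154 CPM in wild type against 219 and 200 CPM, -0.46 ± 0.11) and in stage 7 (-0.28 ± 0.09), the latter lost without any 1 of the 4 libraries (adjusted p of 0.0679 to 0.125). Of the G9a and GLP partner list, 3 of 4 tested were called in stage 7. All 3 (Cdyl, Prdm2 and Zfp644, named here after their values were seen) were higher in Meioc KO, where 15.8% of all genes were. None of that list was called in stages 8 and 9.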

How the data were processed

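Cells of 4 testes were counted with Cell Ranger 4.0.0 on mm10, per the submitters' notes, and the authors deposited raw UMI counts per gene and barcode. Barcodes with more than 1000 genes and under 10% mitochondrial UMIs were kept (median 11854 to 14842 UMIs), and Scrublet's highest scores (0.8% per 1000 barcodes) were removed as doublets. Wild-type cells were clustered (2000 variable genes, 30 components, Leiden) and all others placed by 30 nearest wild-type cells. A germ-cell cluster of median 2917 UMIs was set aside. UMIs were summed per library and cluster (at least 50 cells) and tested with edgeR 4.0.16 (quasi-likelihood, TMM, R 4.3.3) on genes with a UMI in 25% of cells. The genotype fits hold no batch term. The fit between stages, and the fit of the genotype effect in spermatocytes against spermatogonia, hold the library as a term and take their error from stage sums of the same pups. DESeq2 1.42.0 and a block on the littermate pair were alternatives, beside other filters, placings and left-out libraries. CPM are UMIs per 1000000 UMIs of a sum. The submitters' notes pair a wild-type and a Meioc KO pup per batch. Which libraries form a pair was taken from the replicate number, and deviations of same-numbered libraries correlated at 0.13 to 0.65 over genes. The study listed Cbx1 among bound mRNAs that MEIOC lowers in late spermatogonia and/or preleptotene cells in G1. For this it used RNA-binding data and tests over the cells of these samples. The tests here, on sums per library, called Cbx1 in no stage, though its Meioc KO libraries were the higher ones in stages 4 to 7. Named genes were all members, the pathway genes called in the most stages (up to 5 in each direction) with Cbx3, and the 3 genes most like each member. Cdyl, Prdm2 and Zfp644 were added after their values were seen. Members and lists were chosen with earlier results of these data known. Clusters were rebuilt here, so names may differ from the study's.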

Additional observations from a re-analysis of the deposited data

Results flagged for a closer look

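The genotype effect on 6 members differed between early spermatocyte-like stages and spermatogonia-like stages by a test of the difference itself, in which the stage sums of the same 4 pups enter as separate values beside a term for the library. The differences, as log2 fold changes of wild type over Meioc KO, were -0.70 for Cbx5, -0.61 for Ehmt1, -0.30 for Suv39h2, 0.58 for Suv39h1, 0.41 for Trim28 and 0.38 for Setdb1. Of all genes tested, 59.3% differed in the same way.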

How the results depend on the processing

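The members' genotype calls over stages 1 to 9 numbered 10, and 8 to 14 under the alternatives, with 9 to 11 when 1 library was left out. With the replicate block, 14 members' calls and 34 pathway calls were made against 10 and 22, while the calls over all genes went from 1593, 2647 and 3646 to 2659, 3505 and 4108 in stages 7, 8 and 9, and the pathway calls numbered 20 to 27 with 1 library left out. Calls in spermatocytes against spermatogonia numbered 6, and 6 or 7 with 1 library left out. In that comparison Ehmt2 changed sign without wild-type replicate 2 (0.07) and without Meioc KO replicate 1 (0.16), and was at -0.46 without Meioc KO replicate 2. The member calls between wild-type stages numbered 58, and 53 to 57 under the other settings, which kept 53 to 56 of the 58. With wild-type libraries alone, leaving 1 out gave no residual degrees of freedom, so that fit could not be made. A mitochondrial limit of 5% left 2 of 9 stages with 50 cells in every library, and 5 to 27 cells in the smallest library of stages 7 to 9, so it gave no value. Stages 8 and 9 rest on 275 wild-type and 399 Meioc KO cells in their smallest libraries. Placed without the called genes, stage 8 held 936 and 766 Meioc KO cells in place of 504 and 510, and stage 7 held 1393 and 959 in place of 1725 and 1183.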
